A study of Mus musculus with 6 samples.

Results

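Zinc handling was described in mouse liver through 8 genes: the metallothioneins Mt1 and Mt2, the metal-responsive transcription factor Mtf1, the zinc transporter genes Slc30a1 and Slc30a10, and Slc39a4, Slc39a8 and Slc39a14. They were chosen by name and matched by Entrez identifier, and are 8 of the 27179 genes counted in each library. RNA-seq counts came from 6 liver libraries of C57BL/6 mice, 3 wild-type and 3 Mettl3-deficient; METTL3 is the catalytic part of the methyltransferase that places N6-methyladenosine on RNA. The sources used here do not give how or in which cells Mettl3 was lost, nor the age, sex, treatment or hour of collection of the animals. The choice of the 8 genes was made with results of this same comparison in view, in which the mean levels of Mt1 and Mt2 were far apart. Differences between the genotypes in these 8 genes are therefore given as a description, and no p-value is given for them.

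Metallothioneins are small, cysteine-rich proteins that bind zinc and copper, and the liver is a main site of their synthesis. MTF1 is activated by zinc and binds short metal response elements in the promoters of metallothionein genes and of Slc30a1. Proteins of the SLC30 family (ZnT) move zinc out of the cytosol, and proteins of the SLC39 family (ZIP) move it in. Mt1 and Mt2 transcription is also known to be raised by glucocorticoids and by interleukin-6.

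The Mt1 and Mt2 upstream sequences are shown because these genes moved together across the libraries and are textbook carriers of metal response elements. Both lie on the plus strand of chromosome 8, Mt2 at 94172618 to 94173567 and Mt1 at 94178883 to 94180327 (GRCm38.p6, RefSeq). The 250 bases before the RefSeq start used for each gene (for Mt1 a start inside the gene span above) are printed 5′ to 3′, from chr8:94178839-94179088 for Mt1 and chr8:94172368-94172617 for Mt2. Capitals mark the metal response element core, TGCACNC or TGCGCNC, on either strand.
Mt1: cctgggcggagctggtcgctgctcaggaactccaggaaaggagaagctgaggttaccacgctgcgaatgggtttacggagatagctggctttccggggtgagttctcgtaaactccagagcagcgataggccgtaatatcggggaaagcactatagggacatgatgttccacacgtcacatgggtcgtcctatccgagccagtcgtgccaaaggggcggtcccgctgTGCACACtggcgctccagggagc
Mt2: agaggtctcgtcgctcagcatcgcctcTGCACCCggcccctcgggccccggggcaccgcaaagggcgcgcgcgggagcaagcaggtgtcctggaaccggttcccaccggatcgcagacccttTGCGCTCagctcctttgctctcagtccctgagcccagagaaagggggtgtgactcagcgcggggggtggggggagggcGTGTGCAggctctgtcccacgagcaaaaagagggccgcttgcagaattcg
In the main GENCODE M21 transcript of each gene, the letters TATAAA stood 128 bases after the annotated start for Mt1 and 89 bases after it for Mt2. The 30 bases that end with TATAAA are printed from chr8:94179186-94179215 (Mt1) and chr8:94172729-94172758 (Mt2), both on the plus strand, with the element core and TATAAA in capitals.
Mt1, before TATAAA: tTGCGCCCggactcgtccaacgacTATAAA
Mt2, before TATAAA: TGCGCTCgacccaatactctccgcTATAAA
In these stretches 16 bases (Mt1) and 17 bases (Mt2) separated the element core from TATAAA. The first 150 bases of the Mt1 transcript held 4 cores and those of the Mt2 transcript 3. Of 58695 protein-coding transcripts, 0.388% held 3 or more in their first 150 bases and 0.0545% held 4 or more. For Mt1 and Mt2 these first bases lie mostly before TATAAA. Where TATAAA stands in the other transcripts was not looked at, so the compared stretches may differ in kind.

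Across the other members, the 250 bases before the start held 3 cores for Slc30a10, of which a pair overlapped on opposite strands, 1 for Slc30a1 and none for Mtf1. Mt2 also held 3 in that window and Mt1 held 1. The cores counted above in the first 150 bases of the Mt1 and Mt2 transcripts lie after these windows. The window counts of Mt1 and Mt2 therefore leave out the cores next to TATAAA. Slc39a8 had 2 windows, one with 1 core and one without. Of 32851 RefSeq promoter windows of this length, 21.4% held at least 1 core and 1.26% held 3 or more. The antioxidant response element core TGACNNNGC, searched on both strands, was present in Mt2, Slc30a1 and 1 window of Slc39a8, and in 10.2% of all windows. Promoters of Slc39a4 and Slc39a14 were not analysed here. These matches describe the letters only.

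Depth ran from 31960205 to 36025772 counts per library. Mettl3 itself lay between 12.1 and 14.3 CPM (counts per 1e+06 counts, scaled with TMM factors) in wild-type livers and between 4.94 and 6.60 CPM in Mettl3-deficient livers, so that the targeted gene separated the labelled groups. The hepatocyte markers were abundant in every library, with a summed level of 153570 to 189360 CPM in wild-type and 50585 to 83268 CPM in Mettl3-deficient livers. These sums came mostly from Alb, at 108639 to 141166 CPM in wild-type and 32061 to 53329 CPM in Mettl3-deficient livers. Wild type replicate 1 stood apart. Over all tested genes it correlated at 0.943 and 0.939 with wild type replicates 2 and 3, which correlated at 0.983 with each other. It held 6508 counts of Y-linked genes, as did Mettl3-deficient replicates 1 and 2 with 4747 and 5031, while the other 3 libraries held 0. All 10 Kupffer cell and macrophage markers were lowest of the 6 libraries in wild type replicate 1, with a summed level of 168 CPM against 443 and 509 CPM in the other wild-type libraries and 486 to 849 CPM in Mettl3-deficient livers. None of these 10 markers was at 0. In bulk liver RNA, fewer cells of a type and less RNA per cell cannot be told apart, and the part of these markers in the zinc gene values was not tested.

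Mt1 and Mt2 were high in 2 of the 6 libraries. Mt1 (Entrez 17748) measured 19.1, 1159 and 1062 CPM in wild type replicates 1, 2 and 3, and 28.2, 29.8 and 28.5 CPM in Mettl3-deficient replicates 1, 2 and 3. Mt2 (Entrez 17750) measured 4.40, 527 and 495 CPM in the wild-type libraries and 7.77, 4.69 and 5.62 CPM in the Mettl3-deficient libraries. For both genes wild type replicates 2 and 3 were high, the other 4 libraries were low, and wild type replicate 1 was the lowest of all 6. The groups therefore overlapped. In raw counts, Mt1 and Mt2 together gave 47666 and 42141 counts in wild type replicates 2 and 3, against 661 in wild type replicate 1 and 1347 to 1556 in the Mettl3-deficient libraries, so that the low values did not rest on a handful of reads.

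The group means were 747 ± 632 and 28.8 ± 0.835 CPM for Mt1 and 342 ± 293 and 6.03 ± 1.58 CPM for Mt2 (SD, n = 3). The fitted log2 fold change, Mettl3-deficient against wild type, was -4.70 ± 1.34 (SE) for Mt1 and -5.83 ± 1.69 for Mt2. That mean difference depended on which wild-type library it was read against. Against wild type replicates 2 and 3 the Mettl3-deficient mean was 38.5-fold lower for Mt1 and 84.8-fold lower for Mt2. Against wild type replicate 1 alone it was 1.51-fold higher for Mt1 and 1.37-fold higher for Mt2. Among libraries with Y-linked counts (1 wild type, 2 Mettl3-deficient) the log2 ratio of means was 0.60 for Mt1 and 0.50 for Mt2, and among those without (2 wild type, 1 Mettl3-deficient) it was -5.28 and -6.51. With a covariate for Y-linked counts, the fitted values were -2.35 ± 2.05 (SE) and -3.06 ± 2.7, with SEs nearly as large as the values. The ratios thus had opposite signs in the libraries with and without Y-linked counts, each subset resting on 3 libraries. Whether they differ was not tested.

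**Figure D1:**
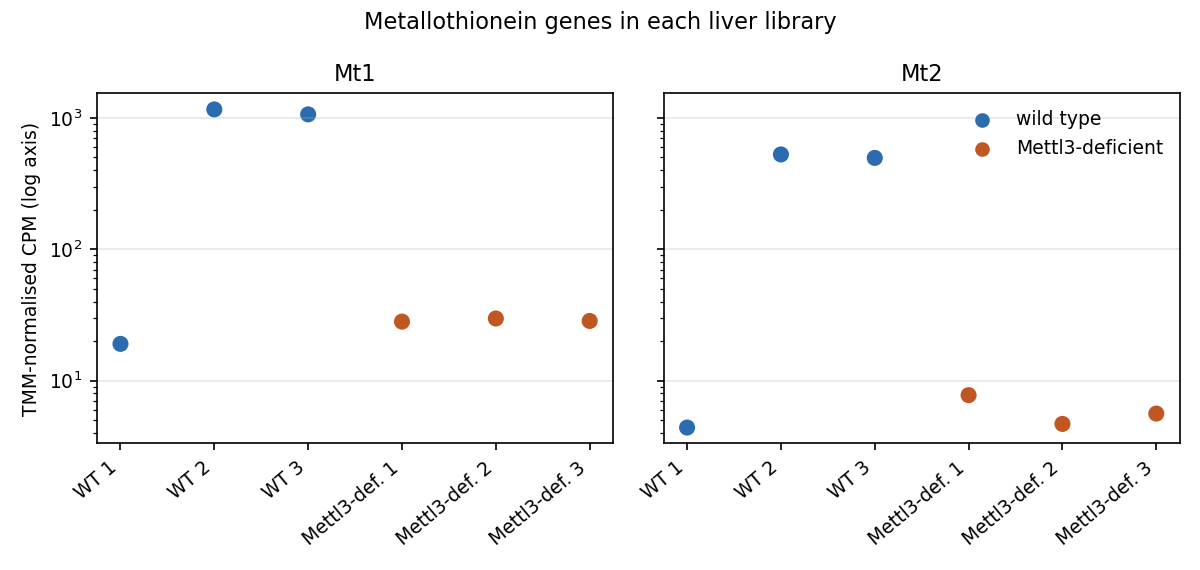
Each point is the TMM-normalised CPM of Mt1 (left) or Mt2 (right) in 1 library, on a log axis, for wild type (WT) and Mettl3-deficient (Mettl3-def.) livers. Wild type replicates 2 and 3 sit at 1159 and 1062 CPM for Mt1, while wild type replicate 1 (19.1 CPM) sits below the 3 Mettl3-deficient libraries.

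Few genes varied as much between wild-type livers. The highest wild-type value exceeded the lowest 60.8-fold for Mt1 and 120-fold for Mt2. Of 9957 genes with a mean of at least 5 CPM, 45 had a wider log2 range than Mt1 among wild-type libraries and 36 a wider range than Mt2. Among Mettl3-deficient libraries the spread of Mt1 was small, with a highest value 1.06 times the lowest, and 3.34% of those genes had a narrower range. Mt2 had a highest value 1.66 times the lowest there, and 75.4% of genes had a narrower range. The ratio of Mt1 to Mt2 CPM was 2.20 and 2.14 in wild type replicates 2 and 3, 4.33 in wild type replicate 1 and 3.63, 6.34 and 5.07 in the Mettl3-deficient libraries. Mt1 thus made up a larger part of the pair wherever the pair was low.

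The 5 genes with the profile nearest to that of Mt1 and Mt2 over the 6 libraries were Usp2, a deubiquitinase, Mfsd2a, a lipid transporter, Cyp3a16, a cytochrome P450, Slc22a26, a transporter of the organic anion family, and Ciart, a circadian repressor. Likeness was the root-mean-square difference between centred log2 CPM profiles, over 9724 genes. It was 0.51 for Usp2, 0.75 for Mfsd2a, 0.97 for Cyp3a16, 0.99 for Slc22a26 and 1.01 for Ciart. Usp2 measured 1.78, 84.2 and 90.7 CPM in wild-type libraries and 3.67, 2.52 and 3.52 CPM in Mettl3-deficient ones. Each of the 5 was high in wild type replicates 2 and 3 and low in the other 4 libraries. This ranking is a description of 6 libraries.

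**Figure D2:**
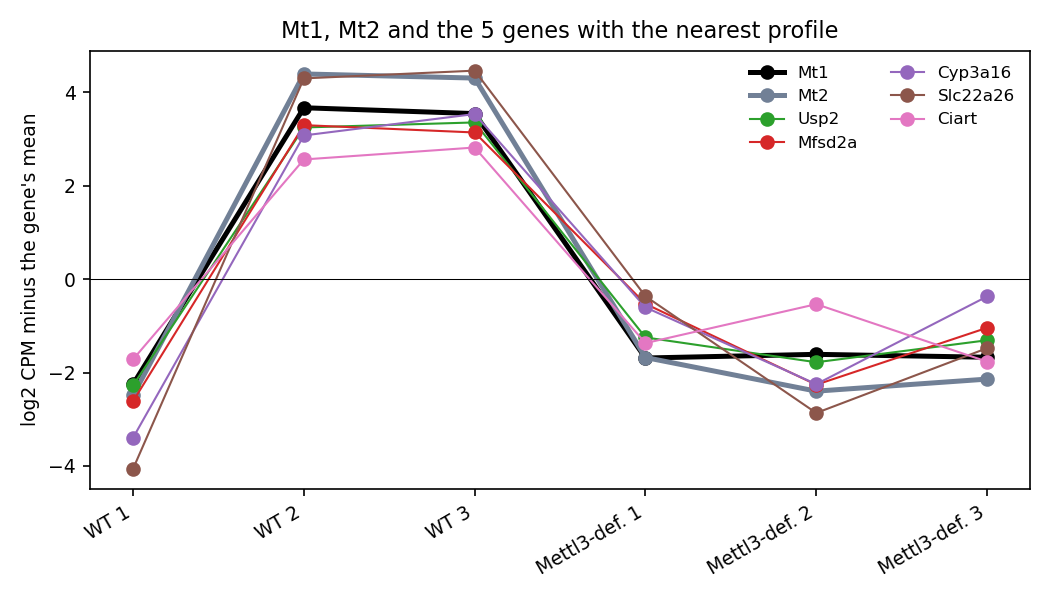
Lines give log2 CPM minus the gene's own mean in each library for Mt1, Mt2 and the 5 genes with the smallest difference from their mean profile. All 7 lines are high in wild type (WT) replicates 2 and 3 and low in wild type replicate 1 and the 3 Mettl3-deficient (Mettl3-def.) libraries.

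Genes known to respond to glucocorticoids, an inducer of metallothioneins, were set beside Mt1 and Mt2. Of 13 tested genes, wild type replicate 1 was the lowest wild-type library in 12, and in 8 it lay more than 2-fold below both other wild-type values, as in 6.95% of all tested genes. Fkbp5, a glucocorticoid-induced chaperone picked after its values were seen, measured 17.4, 293 and 311 CPM in wild-type libraries and 53.8, 56.0 and 53.0 CPM in Mettl3-deficient ones. In the edgeR fit across all genes 4 of the 13 were called, each lower in Mettl3-deficient livers, against 10.5% of all tested genes called lower, with a list median log2 fold change of -1.16 against 0.01 over all genes. The 4, named after their values were seen, were Tsc22d3, Klf9, Dusp1 and Nr3c1, the glucocorticoid receptor gene, and each was called under all 16 alternatives. With wild type replicate 1 left out, 9 were called lower, and DESeq2 called 6 lower and 1 higher. That 1 was Sgk1, a kinase gene, which was not called in the main edgeR fit. It was called higher by edgeR with library size alone and without Mettl3-deficient replicate 3. Sgk1 measured 26.0, 35.9 and 28.7 CPM in wild-type and 56.7, 209 and 34.4 CPM in Mettl3-deficient livers. Of 22 acute phase and interleukin-6 response genes, 6 were called, all lower. The number was 2 when either wild type replicate 2 or wild type replicate 3 was left out, and 12 with DESeq2. The acute phase list had a median of -0.96, and the 12 hepatocyte markers had one of -1.135 with 5 called lower. A fall of this size was thus not particular to the glucocorticoid list. Tat is in both the glucocorticoid and hepatocyte lists, and Fgb in both the acute phase and hepatocyte lists. Whether the glucocorticoid or the interleukin-6 route bears on Mt1 and Mt2 was not tested.

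Genes within 200 kb of Mt1 and Mt2 were looked at by position. Nup93, a nuclear pore gene, went up, with means of 5.77 ± 0.962 and 12.9 ± 3.19 CPM in wild-type and Mettl3-deficient livers (SD, n = 3) and an edgeR adjusted p of 0.0172. Nudt21, Ogfod1 and Bbs2 were not called. The remaining metallothionein genes of this cluster were nearly silent: Mt3 had 0 counts in every library, which allows up to 0.111 CPM by a limit of 3 counts, and Mt4 had 2 counts in Mettl3-deficient replicate 1 and 0 in the others.

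Mtf1, which encodes the zinc-sensing transcription factor (Entrez 17764, chromosome 4, 124802549 to 124849800), was higher in every Mettl3-deficient liver than in any wild-type one. It measured 14.6, 21.5 and 20.7 CPM in wild-type and 32.1, 32.8 and 29.2 CPM in Mettl3-deficient libraries. The log2 fold change was 0.73 ± 0.18 (SE), and the means were 18.9 ± 3.79 and 31.3 ± 1.94 CPM (SD, n = 3). Mtf1 and the metallothionein genes thus had group means that differed in opposite directions. Within libraries with Y-linked counts the log2 ratio of means for Mtf1 was 1.16, and within those without it was 0.47.

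The exporter genes differed from each other. Slc30a1, the plasma membrane zinc exporter (Entrez 22782, chromosome 1, 191906697 to 191913248), measured 44.97, 70.7 and 72.8 CPM in wild-type and 67.8, 70.3 and 58.8 CPM in Mettl3-deficient livers. The Slc30a1 groups overlapped, and the log2 fold change was 0.06 ± 0.21 (SE). Its sign turned to -0.13 without wild type replicate 1, its lowest library. Slc30a10, whose product exports manganese (Entrez 226781, chromosome 1, 185454848 to 185468762), measured 112, 58.8 and 37.9 CPM in wild-type and 33.0, 10.2 and 18.0 CPM in Mettl3-deficient livers. The Slc30a10 groups did not overlap, though the lowest wild-type and highest Mettl3-deficient values were close. Its log2 fold change was -1.77 ± 0.53 (SE), and -1.25 without wild type replicate 1, the highest library.

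Of the importer genes, Slc39a4 showed the largest difference. Slc39a4 (Entrez 72027, chromosome 15, 76612383 to 76618506), best known as the intestinal zinc importer that is defective in the human disease acrodermatitis enteropathica, measured 29.7, 67.5 and 93.3 CPM in wild-type and 238, 260.0 and 221 CPM in Mettl3-deficient livers. Every Mettl3-deficient library lay above every wild-type library. The means were 63.5 ± 32.0 and 239.6 ± 19.5 CPM (SD, n = 3), a log2 fold change of 1.92 ± 0.38 (SE). Against wild type replicates 2 and 3 the Mettl3-deficient mean was 2.98-fold higher, and against wild type replicate 1 it was 8.08-fold higher. The Slc39a4 difference had the same sign in libraries with Y-linked counts (log2 ratio of means 3.07) and without them (1.46).

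Slc39a14, whose product takes up zinc, manganese and non-transferrin iron in hepatocytes (Entrez 213053, chromosome 14, 70303467 to 70351452), measured 142, 273 and 323 CPM in wild-type and 118, 109 and 145 CPM in Mettl3-deficient livers. Wild type replicates 2 and 3 were high, which Slc39a14 shared with Mt1 and Mt2 at a far smaller size. Wild type replicate 1 lay within the Mettl3-deficient range for Slc39a14, but below that range for Mt1 and Mt2. The log2 fold change of Slc39a14 was -0.99 ± 0.31 (SE), and -1.27 without wild type replicate 1. Slc39a8, a related importer of zinc and manganese (Entrez 67547, chromosome 3, 135816882 to 135888572), measured 30.7, 31.9 and 27.3 CPM in wild-type and 29.1, 28.1 and 30.2 CPM in Mettl3-deficient livers. The Slc39a8 groups overlapped, its log2 fold change was -0.04 ± 0.14 (SE), and its wild-type values varied least of the 8 genes, with a coefficient of variation of 7.96%.

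**Figure D3:**
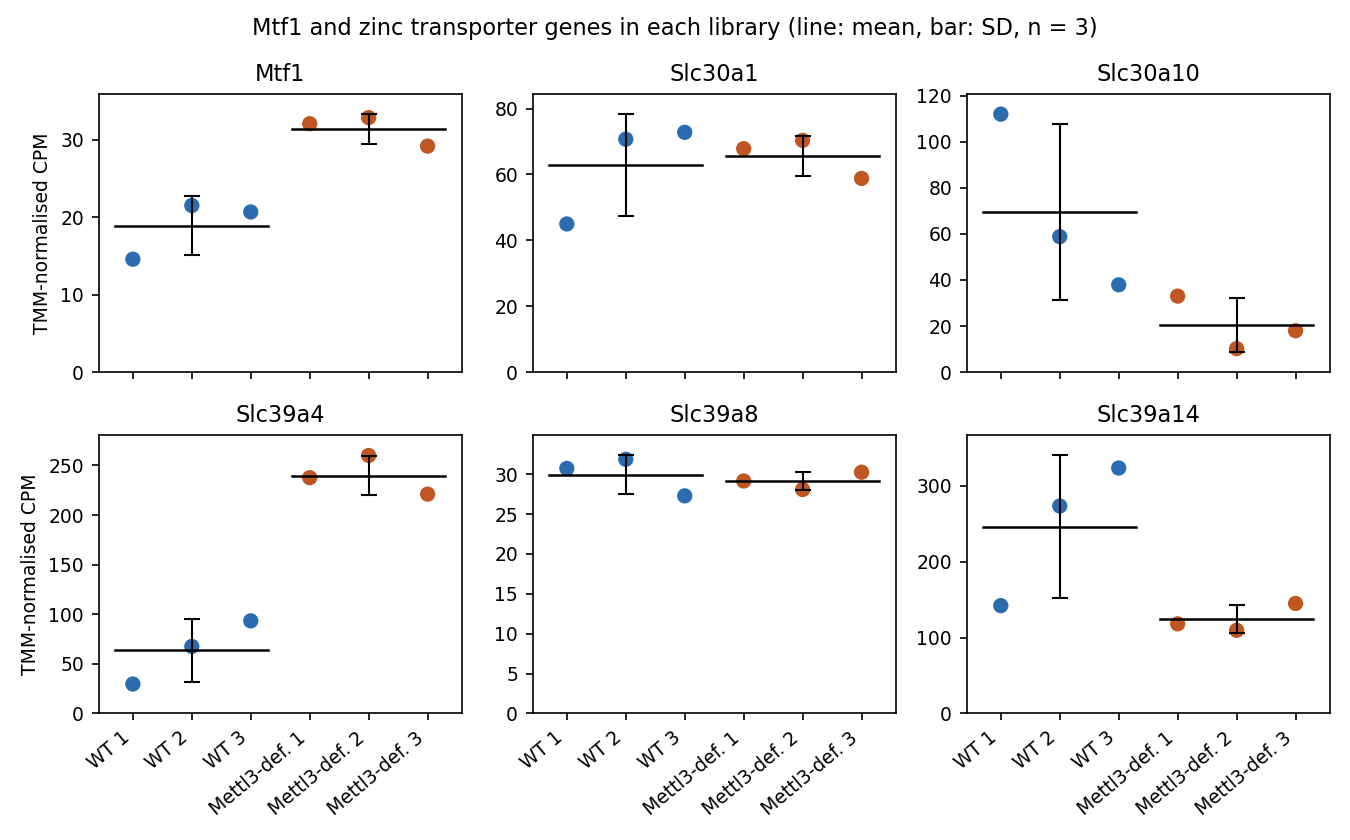
Points are TMM-normalised CPM in each wild type (WT) and Mettl3-deficient (Mettl3-def.) library, lines are group means and bars SD (n = 3), on axes that start at 0. The groups stand apart for Mtf1, Slc30a10 and Slc39a4 and overlap for Slc30a1, Slc39a8 and Slc39a14.

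In the edgeR quasi-likelihood fit, 2 of the 8 genes, Mtf1 and Slc39a4, passed a Benjamini-Hochberg adjusted p under 0.05, both higher, beside 23.8% of all 14380 tested genes. The groups did not overlap for 3 of the 8, with 2 higher and 1 lower, beside 45.7% of all tested genes (23.9% higher, 21.9% lower). Because the 8 genes were chosen with this comparison known, nothing is read from either count, nor from which genes pass under other settings. The count itself moved with the settings. Mt1 and Mt2 also passed, as lower, without wild type replicate 1, and, with all 6 libraries kept, under DESeq2 and under the CPM filter. Slc30a10 passed as lower under 8 of the 16 alternatives, and Slc39a14 under 3. Mtf1 did not pass in 4 of the 6 fits that each left out 1 library, all but those without wild type replicate 1 and without Mettl3-deficient replicate 3.

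**Figure D4:**
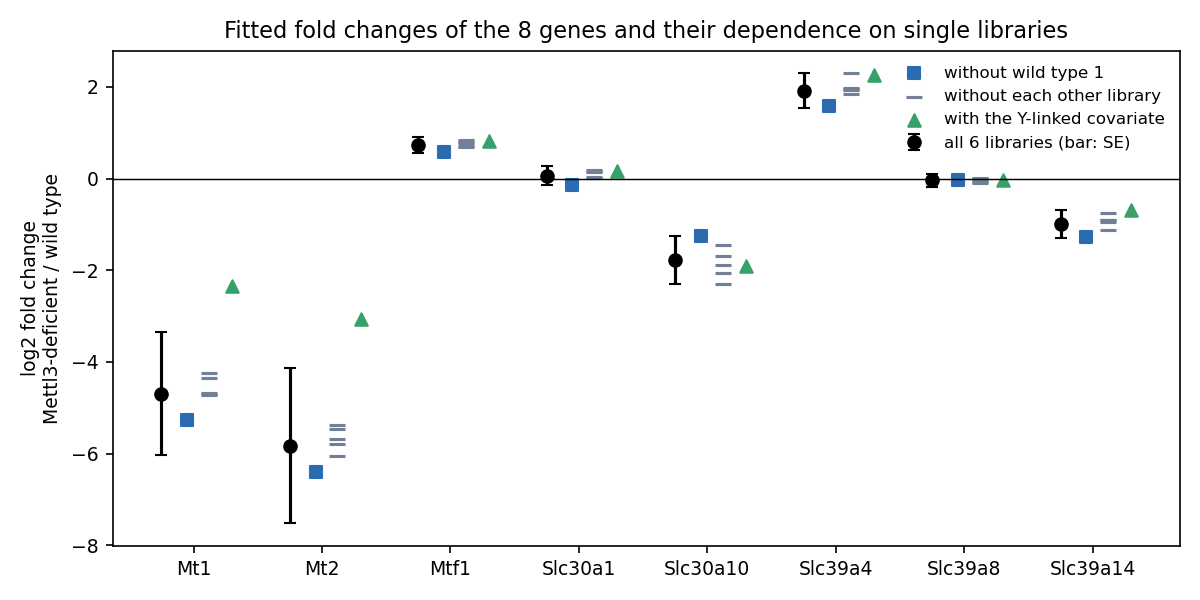
The log2 fold change of each gene (Mettl3-deficient against wild type) is shown for all 6 libraries with its SE, without wild type replicate 1, without each other library and with a covariate for Y-linked counts. Mt1 moves from -4.70 to -2.35 (SE 2.05) and Mt2 from -5.83 to -3.06 (SE 2.7) with the covariate. Slc39a4 stays between 1.57 and 2.297 when 1 library is left out.

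Levels of different genes were compared per kilobase of annotated exon. The length used was 1246 bases for Mt1 and 588 bases for Mt2. The Mt1 length appears to take in intron sequence, which would lower its values per kilobase. Its place in the orders and its ranks below are therefore uncertain. In wild-type livers the order was Mt1 (599 ± 507 CPM per kilobase), Mt2 (582 ± 498), Slc39a14 (47.3 ± 18.0), Slc39a4 (23.0 ± 11.6), Slc30a1 (11.98 ± 2.95), Slc30a10 (11.9 ± 6.55), Slc39a8 (7.36 ± 0.586) and Mtf1 (2.37 ± 0.475) (SD, n = 3). Neighbours in this order did not differ beyond their SDs except Mt2 and Slc39a14, and Slc39a8 and Mtf1. In wild type replicate 1 the order of Mt2 (7.49 CPM per kilobase) and Slc39a14 (27.3) was the opposite. In Mettl3-deficient livers Slc39a4 came first at 86.9 ± 7.08 CPM per kilobase, above Slc39a14 (23.8 ± 3.54) and Mt1 (23.1 ± 0.671), which did not differ beyond their spread. Slc30a1 (12.5 ± 1.16) and Mt2 (10.3 ± 2.68) followed, then Slc39a8 (7.17 ± 0.267), Mtf1 (3.93 ± 0.243) and Slc30a10 (3.49 ± 1.99). Within their SDs, Slc30a1 overlapped Mt2 and Mtf1 overlapped Slc30a10. By mean level per kilobase Mt1 ranked 115 of 13823 genes in wild-type and 2224 in Mettl3-deficient livers, and Slc39a4 ranked 2329 and 626.

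The rest of the zinc transporter families was examined as whole families, and 16 of these 21 other genes passed the filter on low counts. Of the 16, 4 rose and 1 fell, beside 13.3% of all tested genes called higher and 10.5% called lower. Their median log2 fold change was 0.16, against 0.01 over all tested genes. Among importers, Slc39a11, an intracellular zinc transporter, rose (edgeR adjusted p = 0.0114), with means of 23.7 ± 2.60 CPM in wild-type and 42.1 ± 4.77 CPM in Mettl3-deficient livers (SD, n = 3). Slc39a10, a plasma membrane importer, rose as well (edgeR adjusted p = 0.0259), with means of 4.86 ± 1.94 and 15.8 ± 7.95 CPM. Slc39a11 measured 20.7, 24.8 and 25.6 CPM in wild-type and 39.1, 47.6 and 39.5 CPM in Mettl3-deficient livers, and was called under all 16 alternatives. Slc39a5, an importer named here after its values were seen, measured 0.320, 4.67 and 7.54 CPM in wild-type and 30.6, 28.0 and 39.1 CPM in Mettl3-deficient livers. It was not called (edgeR adjusted p = 0.0569), although its groups did not overlap, and it was called without wild type replicate 1.

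Among the other exporters, Slc30a4, which loads zinc into endosomal and secretory vesicles, rose (edgeR adjusted p = 0.026) from 17.3, 21.9 and 19.8 CPM in wild-type to 37.6, 54.0 and 27.1 CPM in Mettl3-deficient livers. Slc30a6, of the Golgi, rose (edgeR adjusted p = 0.0374), with means of 13.8 ± 2.63 and 21.8 ± 2.01 CPM (SD, n = 3). Slc30a3, known for filling synaptic vesicles with zinc in the brain, fell from a low level, with 36, 12 and 34 counts in wild-type and 0, 4 and 8 counts in Mettl3-deficient libraries (edgeR adjusted p = 0.0364). Of the 4 that rose, Slc39a11 alone was still called whichever library was left out. Slc30a4 also lost its call without wild type replicate 1, and Slc30a3 lost its call when any library other than Mettl3-deficient replicate 3 was left out. The summed level of these 21 genes was 461 to 499 CPM in wild-type and 544 to 694 CPM in Mettl3-deficient livers, and the summed level of the 8 chosen genes was 397, 2209 and 2133 CPM in wild type replicates 1, 2 and 3 and 536 to 554 CPM in Mettl3-deficient livers.

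**Figure D5:**
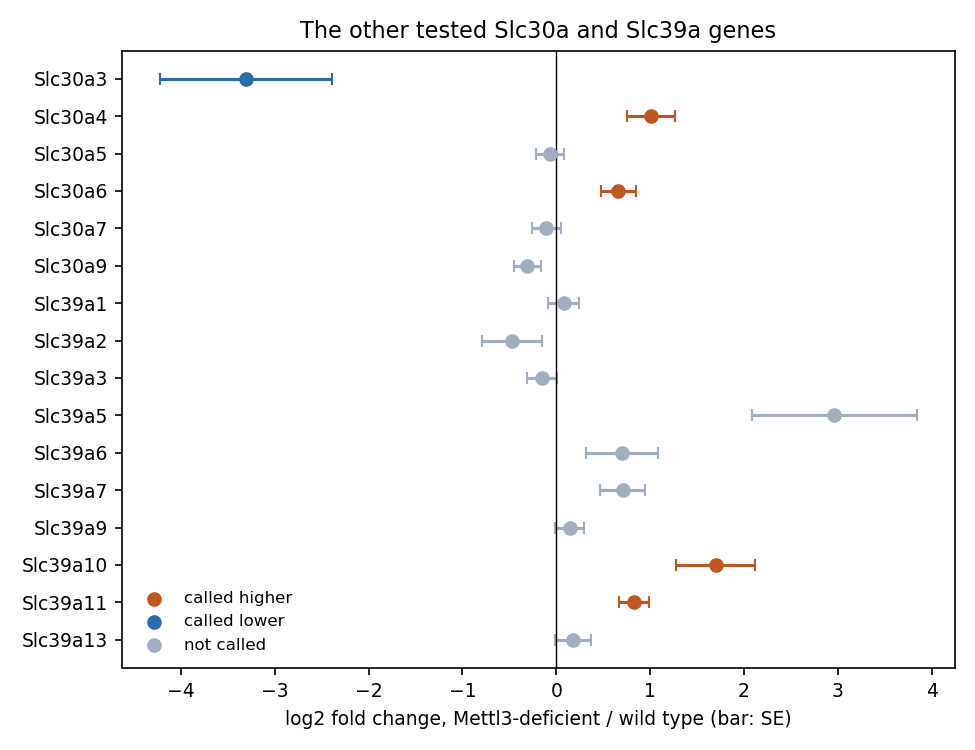
Points are log2 fold changes (Mettl3-deficient against wild type) and bars SE for the 16 other tested Slc30a and Slc39a genes, coloured by call. Slc30a4, Slc30a6, Slc39a10 and Slc39a11 were called higher and Slc30a3 lower, and Slc39a5 had the largest value (2.96) without a call.

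Genes that handle copper and manganese were examined as lists. Beside 10.5% of all tested genes called lower, 1 of 12 copper genes was called, Sod1, copper and zinc superoxide dismutase, which fell (edgeR adjusted p = 0.0199), with means of 868 ± 60.6 CPM in wild-type and 431 ± 70.9 CPM in Mettl3-deficient livers (SD, n = 3). Of 8 tested genes of manganese and divalent metal handling 1 was called lower, Sod2, the manganese superoxide dismutase, which fell (edgeR adjusted p = 0.0402), with means of 222 ± 34.6 and 141 ± 3.91 CPM. The call of Sod1 was lost when any one of wild type replicates 2 and 3 and Mettl3-deficient replicate 1 was left out. It was also lost with library size alone. The call of Sod2 was lost when any library other than wild type replicate 1 was left out, and also with the replicate block, the Y-linked covariate, no filter and library size alone. Both counts are near the share over all genes. The list medians were -0.28 for copper and -0.12 for manganese, against 0.01 over all genes.

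Markers of cell types were set beside the shares over all tested genes, 13.3% called higher and 10.5% called lower. Of 10 Kupffer cell and macrophage markers 2 were called, both higher. Of 9 tested cholangiocyte markers 3 were called, all higher, with a summed level of 108 to 129 CPM in wild-type and 113 to 274 CPM in Mettl3-deficient livers. Of 12 hepatocyte markers 5 were called, all lower. Of 8 tested lymphocyte and neutrophil markers 2 were called, both higher, and of 10 stellate markers 1 was called higher. Of 10 endothelial markers 1 was called lower, and of 4 tested erythroid markers 3 were called lower. Of 10 pancreatic acinar markers 7 were at 0 in all libraries, and their summed level of 11.0 to 48.3 CPM in wild-type and 6.22 to 8.46 CPM in Mettl3-deficient livers came mostly from Cela1. The part of cell makeup in the zinc gene differences was not tested.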

How the data were processed

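The 6 liver RNA-seq libraries, 3 per genotype, were grouped by the labels. Per the labels' protocols, total RNA was depleted of ribosomal RNA and made into directional libraries. The deposited values are raw counts per Entrez gene, not normalized. HISAT2, featureCounts and mm10 are named in the submitters' processing notes, and the sources used here give neither versions nor the strand setting. The labels do not say that each library is a separate animal, so a p-value here reflects how these libraries vary, which may be partly technical. Each group holds libraries with and without Y-linked counts, so neither is from a single animal. Libraries of 1 group differed beyond sampling noise (chi-square over its degrees of freedom at least 16.2). That lowest value was for wild type replicates 2 and 3, the pair high in Mt1 and Mt2. The other pairs within a group had 85.05 to 287.5.

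Symbols and coordinates came from RefSeq GRCm38.p6, which is the mm10 build, and 25275 of 27179 identifiers matched. Counts were tested with edgeR 4.0.16 in R 4.3.3 (robust quasi-likelihood F test, two-sided, TMM factors, group as the design, filterByExpr at min.count 10 and min.total.count 15). The filter kept 14380 genes, all 8 zinc genes among them. A call is a Benjamini-Hochberg adjusted p under 0.05 over all tested genes. An SE is the absolute log2 fold change divided by the square root of F. The fit was tested on simulated data. Exon lengths are unions over GENCODE M21 basic transcripts and may differ from the annotation used for counting. Of the 8 genes, 5 overlap a gene on the opposite strand (Mt2, Mtf1, Slc30a1, Slc30a10 and Slc39a8), and if strand was not used in counting, such reads cannot be told apart. Mt1 and Mt2 are paralogs, and how shared reads were counted is not stated.

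The members and lists were chosen with earlier results of these data known. Not every gene near Mt1 and Mt2 is reported here. Named genes are the 8 members, the called genes of the remaining families, Mettl3, up to 3 called genes of each of the copper and manganese lists by p, and the 5 nearest profiles with a mean of at least 5 CPM, leaving out unnamed gene models. Genes of the glucocorticoid list, Slc39a5, Cela1, Alb and the genes near Mt1 and Mt2 are named outside that rule, after their values were seen. Alternatives were RLE, upper-quartile and no composition factors, DESeq2 1.42.0, limma-voom (limma 3.58.1), no filter, CPM of at least 1 in 3 libraries, a replicate block, a fit leaving out the 20 genes with most counts, a covariate for libraries with more than 100 Y-linked counts, and each library left out in turn.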

Additional observations from a re-analysis of the deposited data

How the results depend on the processing

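Under 16 alternatives, 154 of 176 values stayed within 1.5 times the main count or moved by less than 1 pooled SD between libraries on the log2 scale. That SD is wide for Mt1 (2.39) and Mt2 (2.80), so it takes in their shifts to -2.35 and -3.06 with the Y-linked covariate. Slc30a1 and Slc39a8, both near 0, changed sign in some fits. The main fit called 3420 genes, library size alone called 5405, and leaving out 1 library gave 1382 to 3514. With library size alone, the median over all genes went from 0.01 to 0.49 on the log2 scale. That setting gave 10 other zinc genes that rose (4 in the main fit), and log2 fold changes of 1.21 for Mtf1, 0.55 for Slc30a1, 0.43 for Slc39a8 and -0.51 for Slc39a14, in each case a shift about as large as that of the median. Leaving out 1 library gave 1 to 5 other zinc genes that rose and 0 to 1 that fell (edgeR, with 1 to 2 lower at an unadjusted p under 0.05). The 1 that fell, Slc30a3, was lost (0 fell by edgeR) under the CPM filter, where it was not tested (0 lower at an unadjusted p under 0.05), with the Y-linked covariate and with the replicate block, each of the last pair with 1 lower at an unadjusted p under 0.05, and DESeq2 called 1. Without 1 library the log2 fold change ranged from -5.27 to -4.23 for Mt1, from -6.41 to -5.37 for Mt2, from 0.57 to 0.83 for Mtf1, from -0.13 to 0.18 for Slc30a1, from -2.304 to -1.25 for Slc30a10, from 1.57 to 2.297 for Slc39a4, from -0.11 to 0.0064 for Slc39a8 and from -1.27 to -0.75 for Slc39a14. The causes were not tested.

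The labels do not say that replicate numbers pair the samples. Deviations from the group means correlated at 0.0839, -0.0174 and 0.0335 for numbers 1, 2 and 3. Mettl3-deficient replicates 2 and 3 each correlated best with a wild-type library of another number, and replicate 1 with wild type replicate 1. With 3 libraries per group, these values cannot exclude paired animals. With the replicate block 2683 genes were called, 3 other zinc genes rose, and the log2 fold changes were -3.83 for Mt1 and -5.08 for Mt2. Groups of 3 libraries, with 1 wild-type library apart from the others, limit what the means of Mt1 and Mt2 can show.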

Other observations

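Beyond the genotype comparison, the zinc genes differed in how they ordered the wild-type livers. Wild type replicate 1 was the lowest wild-type library for 6 of the 8 genes and the lowest of all 6 libraries for 5 of them, against 40.9% and 23.7% of all tested genes. Slc30a10 went the other way, with its highest value of any library there (112 CPM), and Slc39a8 was between the others. Nothing is read from the counts over the 8 genes, because they were chosen with this comparison known and Mt1 and Mt2 moved together. Other lists shared the order in part. Wild type replicate 1 was the lowest wild-type library for 6 of 10 other tested Slc39a genes, 1 of 6 other tested Slc30a genes, 6 of 8 manganese genes, 3 of 12 copper genes, 12 of 13 glucocorticoid genes, 19 of 22 acute phase genes and 9 of 10 endothelial markers.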
